A study of Mus musculus with 10 samples.

Results

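The genes described here are 9 of the 35275 genes in the deposited expression table: the goblet cell products Muc2, Fcgbp, Zg16, Tff3, Spink4, Retnlb, Agr2 and Clca1, and the transcription factor Spdef. They were chosen by gene symbol, with earlier results of these data known, and read in all 10 libraries. Each library was made from polyadenylated RNA of jejunal epithelial cells, freed mechanically in cold buffer with EDTA, of a male C57BL/6 mouse per the labels. All mice carried VillinCreERT2;MYO5Bflox/flox, a Cre recombinase that is driven by the villin promoter and is active only after tamoxifen, together with floxed alleles of Myo5b, the gene of the motor protein myosin Vb. The control mice (n = 3, mice 2, 4 and 5) received corn oil, kept Myo5b and carried the same alleles. Tamoxifen itself thus also differed between them and the induced mice. No BSA vehicle and no days of treatment are listed for the control mice, so the course of injections may have differed as well. The MYO5B-knockout mice (n = 4, mice 3, 5, 6 and 7) received a single dose of 2 mg tamoxifen and vehicle (0.1% BSA in PBS) by intraperitoneal injection for 4 days. The LPA-treated MYO5B-knockout mice (n = 3, mice 1, 4 and 5) received the same tamoxifen dose and lysophosphatidic acid (LPA). LPA is a signalling lipid that acts through cell-surface receptors. It was given at 3 mg/kg for 4 days, by intraperitoneal injection as the ip in the sample titles states. The title and the stated injection put mouse 1 of this group under LPA, whereas another line of its description names vehicle. No LPA-treated control mice were analysed here. The questions asked were whether goblet cell transcripts changed after loss of Myo5b, and whether LPA changed them in knockout mice.

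Goblet cells are the mucus-secreting cells of the intestinal epithelium. Muc2 is the gel-forming mucin of intestinal mucus, Fcgbp is a large mucus protein bound within that gel, and Zg16 is a small lectin that binds the wall of Gram-positive bacteria. Tff3 is a trefoil peptide that is secreted with Muc2 and aids repair of the epithelium. Spink4 is a secreted peptide with a protease inhibitor fold, and Retnlb (RELM-beta) is a secreted antibacterial protein that type 2 cytokines induce. Agr2 is a protein disulfide isomerase of the endoplasmic reticulum that is needed for Muc2 to be made, and Clca1 is a metalloprotease of the mucus. Spdef is the ETS-family transcription factor that acts downstream of Atoh1 in goblet cell maturation.

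Between 10949420 and 24470409 reads lay on genes in each library. Control mouse 2 and MYO5B-knockout mouse 3 gave the 2 gene-poor libraries, which stood apart with reads on 12242 and 12601 genes against 17309 to 18267 genes in the other 8, and with 17.4% and 18% of reads on mitochondrial genes against 1.98% to 3.5%. MYO5B-knockout mouse 3 and mouse 1 of the LPA group gave libraries that went against the labelled sex, as they held Xist (8.41 and 15.1 FPKM) but no reads on 4 Y-linked genes (0 in both). Results are therefore given with and without these libraries where they rest on them. Myo5b ranged from 16.5 to 32 FPKM in controls, from 10.5 to 13.6 FPKM in MYO5B-knockout mice and from 10.3 to 11.7 FPKM under LPA, so every induced library lay below every control library. FPKM are fragments per kilobase of gene length and per unit of library size. As the cells were measured in bulk, fewer goblet cells and less RNA per goblet cell cannot be told apart.

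On the GRCm38 genome the members lie on 6 chromosomes. Muc2 (ENSMUSG00000025515) spans chr7:141690340-141754693 and Fcgbp (ENSMUSG00000047730) chr7:28071236-28120862. Zg16 (ENSMUSG00000049350) spans chr7:127050156-127051977, Tff3 (ENSMUSG00000024029) chr17:31125306-31129646 and Spdef (ENSMUSG00000024215) chr17:27714352-27728951. Spink4 (ENSMUSG00000028415) spans chr4:40920052-40931395, Retnlb (ENSMUSG00000022650) chr16:48816856-48818891 and Agr2 (ENSMUSG00000020581) chr12:35992907-36004087. The row listed as Clca1 has the identifier ENSMUSG00000056025 (chr3:144729677-144760977), which the GENCODE M21 annotation names Clca3a1. The gene that M21 names Clca1, the one described above as a mucus metalloprotease, is ENSMUSG00000028255 (chr3:145004537-145032776) and is listed as Clca3. Both rows are reported, the second being added after its values were seen, and the first is called "listed as Clca1" throughout. The length that the table uses for Muc2 is 2926 bases, whereas the merged exons of M21 make 7127, and for Zg16 the lengths are 636 and 1257. Levels of different genes therefore depend on the lengths used, whereas a comparison of 1 gene between mice does not. Fcgbp is the only member for which an overlapping gene was found (Gm10935, on the other strand), and that gene held 64 reads over the 10 libraries against 697807 on Fcgbp.

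RefSeq promoters of GRCm38.p6 matched 5 of the 9 rows. The 250 bases before the start of 4 of them are given, the mucus proteins Muc2 and Fcgbp and the pair Agr2 and Spdef, because the comparisons below set Fcgbp, Agr2 and Spdef against Muc2. Capitals mark motifs, which were searched on both strands. The windows are chr7:141690090-141690339 for Muc2 and chr7:28070986-28071235 for Fcgbp, both on the plus strand. They are chr12:35992675-35992924 for Agr2, on the plus strand, and chr17:27728952-27729201 for Spdef, on the minus strand. The Agr2 window runs a few bases past the gene start in the deposited table.
Muc2: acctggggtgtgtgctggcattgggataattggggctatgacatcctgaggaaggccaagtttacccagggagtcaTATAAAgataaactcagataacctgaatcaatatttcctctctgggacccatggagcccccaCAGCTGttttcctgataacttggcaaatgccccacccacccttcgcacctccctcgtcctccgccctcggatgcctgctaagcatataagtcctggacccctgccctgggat
Fcgbp: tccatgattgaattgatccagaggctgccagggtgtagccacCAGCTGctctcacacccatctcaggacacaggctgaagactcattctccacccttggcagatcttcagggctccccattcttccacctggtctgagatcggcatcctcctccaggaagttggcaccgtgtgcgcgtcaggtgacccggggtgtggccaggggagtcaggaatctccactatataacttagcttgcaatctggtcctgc
Agr2: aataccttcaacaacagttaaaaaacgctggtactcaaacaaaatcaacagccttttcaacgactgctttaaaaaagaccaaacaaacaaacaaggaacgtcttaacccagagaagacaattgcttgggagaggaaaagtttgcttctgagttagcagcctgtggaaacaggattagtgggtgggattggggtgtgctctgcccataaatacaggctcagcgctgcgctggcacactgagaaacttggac
Spdef: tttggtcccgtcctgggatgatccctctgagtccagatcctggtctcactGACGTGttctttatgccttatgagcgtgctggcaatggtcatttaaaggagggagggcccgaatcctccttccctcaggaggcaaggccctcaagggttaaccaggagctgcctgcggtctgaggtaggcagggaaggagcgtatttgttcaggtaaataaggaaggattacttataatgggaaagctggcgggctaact
The E-box CAGCTG, which Atoh1 and other basic helix-loop-helix factors bind, was present in the Muc2 window (bases -112 to -107 from the start) and the Fcgbp window (-208 to -203). It is present in 13% of 32851 mouse promoter windows of this length. Muc2 also held TATAAA (-174 to -169), found in 12.4% of windows, and Spdef held GACGTG (-200 to -195), the core of an element that Xbp1 binds, found in 5.2%. The core of the Spdef motif, CCGGAT, and the forkhead motif TGTTTAC were in none of the 5 windows, against 4.94% and 3.17% of all windows. No motif matched in the Agr2 window or in that of the gene listed as Clca1. No motif match overlapped another.

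In control mice the order of levels per length ran from Zg16 (5540 ± 775 FPKM, SD, n = 3) through Tff3 (3168 ± 329.6), Spink4 (1538 ± 691), Fcgbp (585 ± 6.41), Muc2 (287 ± 10.4) and Agr2 (220.2 ± 76.2) to Spdef (8.56 ± 1.75), Retnlb (4.66 ± 3.49) and the gene listed as Clca1 (0.749 ± 0.479). The ranges of neighbours in this order did not overlap, except for Spdef with Retnlb and Retnlb with the gene listed as Clca1. In MYO5B-knockout mice Agr2 (562 ± 203 FPKM, SD, n = 4) had a higher mean than Fcgbp (403 ± 117) and Muc2 (321 ± 96.6), but the ranges of these 3 genes overlapped. Muc2 and Fcgbp varied little in control mice, with coefficients of variation of 3.63% and 1.1%, against 30.1% and 28.9% in MYO5B-knockout mice. Both lowest knockout values, 202 FPKM of Muc2 and 235 FPKM of Fcgbp, came from gene-poor mouse 3. The remaining knockout mice held 292 to 426 FPKM of Muc2 and 419 to 497 FPKM of Fcgbp. Coefficients of variation within the 3 groups ran from 66.3% to 85.2% for Retnlb, from 27% to 63.9% for the gene listed as Clca1 and from 44.9% to 55.4% for Spink4. Retnlb rested on 14 to 205 reads per library and the gene listed as Clca1 on 10 to 160. Spdef had 157 to 1210 reads per library.

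**Figure D1:**
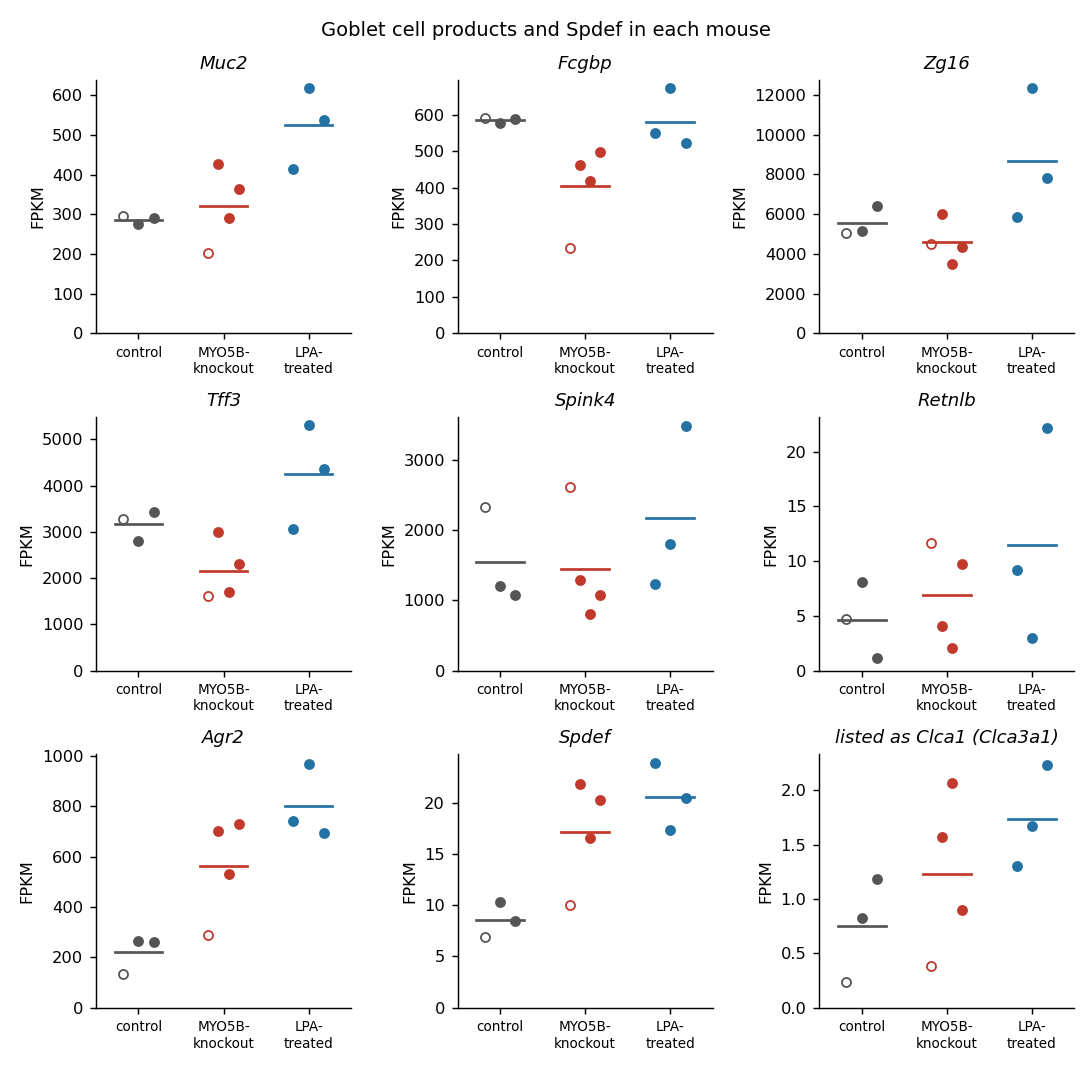
FPKM of the 9 members (vertical axes, linear from 0) in control mice (grey, n = 3), MYO5B-knockout mice (red, n = 4) and LPA-treated MYO5B-knockout mice (blue, n = 3); points are mice, lines are group means, and open points are control mouse 2 and MYO5B-knockout mouse 3. Agr2 lay at 132 to 266 FPKM in the controls and at 288 FPKM or above in every induced mouse, and Fcgbp was lower in all 4 MYO5B-knockout mice than in any control mouse.

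After loss of Myo5b, the members did not share a direction. Agr2 and Spdef were higher in MYO5B-knockout mice, by 2.52-fold and 1.94-fold, whereas Fcgbp and Tff3 were lower, both at 0.66 of the control level, and Muc2 stood at 1.08 of it. None of the 9 members passed an adjusted p of 0.05 in limma's test across 15729 genes, a threshold that 2.01% of all genes tested passed. At an unadjusted p of 0.05, 2 members (Agr2 and Spdef) passed, against 17.6% of all genes. On reads recovered from the FPKM, edgeR called 0 of the 9, against 2.82% of all genes, and DESeq2 called 3 (Agr2, Spdef and Fcgbp), against 11.6%. The members' median log2 fold change was 0.11, with 5 above 0 and 4 below, and that of all genes tested was 0.29. Once libraries were scaled by the median of their ratios these medians were -0.18, with 4 members above 0 and 5 below, and 0.039. Fold changes are on the scale of log2(FPKM + 0.1).

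The gel proteins differed from each other. Control mice 2, 4 and 5 held Muc2 at 296, 276 and 290.4 FPKM, and MYO5B-knockout mice 3, 5, 6 and 7 held it at 202, 426, 292 and 365 FPKM. The knockout mice thus lay on both sides of the controls (log2 fold change 0.11, standard error (SE) 0.30, limma adjusted p = 0.889), and the sign turned to -0.18 after median-ratio scaling. Fcgbp was present at 591, 578 and 587 FPKM in the controls and at 235, 463, 419 and 497 FPKM in knockout mice. All 4 knockout mice lay below all controls, as they did for 6.2% of all genes tested, and the log2 fold change was -0.59 (SE 0.31, limma adjusted p = 0.35). Without knockout mouse 3, the lowest of them, it was -0.35 (limma adjusted p = 0.312). DESeq2 called Fcgbp lower (-0.92, adjusted p = 0.0176). Zg16 was present at 5051, 5137 and 6434 FPKM in the controls and at 4519, 5995, 3505 and 4371 FPKM in knockout mice, which overlapped (-0.29, SE 0.40, limma adjusted p = 0.754).

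Tff3 was present at 3272, 2799 and 3433 FPKM in the controls and at 1603, 2998, 1694 and 2313 FPKM in knockout mice. Only knockout mouse 5 reached the control range, and the log2 fold change was -0.60 (SE 0.37, limma adjusted p = 0.432). Spink4 was present at 2332, 1206 and 1076 FPKM in the controls and at 2611, 1289, 812 and 1069 FPKM in knockout mice. In both groups its highest value came from the gene-poor library, control mouse 2 and knockout mouse 3, and the groups overlapped (-0.15, SE 0.51, limma adjusted p = 0.913). Retnlb was present at 4.69, 8.13 and 1.15 FPKM in the controls and at 11.7, 4.09, 2.04 and 9.76 FPKM in knockout mice, a difference well within the spread (0.63, SE 0.86, limma adjusted p = 0.744).

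Agr2 was present at 132, 266 and 263 FPKM in the controls and at 288, 702, 530 and 729 FPKM in knockout mice. Every knockout mouse lay above every control, as for 11% of all genes tested, and the lowest value of each group came from the gene-poor libraries. The log2 fold change was 1.33 (SE 0.40, limma adjusted p = 0.115). Without those 2 libraries it was 1.29 (limma adjusted p = 0.0348), a setting under which 778 genes passed in place of 316. Spdef was present at 6.87, 10.4 and 8.47 FPKM in the controls and at 9.97, 21.9, 16.5 and 20.3 FPKM in knockout mice. Knockout mouse 3 alone lay within the control range, and the log2 fold change was 0.95 (SE 0.33, limma adjusted p = 0.165). Without the 2 gene-poor libraries it was 1.04 (limma adjusted p = 0.0406). DESeq2 called both genes, with 1.07 for Agr2 (adjusted p = 0.00297) and 0.68 for Spdef (adjusted p = 0.0214), whereas edgeR called neither (adjusted p = 0.0938 and 0.163).

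The row listed as Clca1 was low, at 0.238, 0.821 and 1.19 FPKM in the controls and 0.385, 1.57, 2.06 and 0.899 FPKM in knockout mice, and the groups overlapped (0.64, SE 0.65, limma adjusted p = 0.646). The gene named Clca1 in M21 was abundant and uneven, at 99.9, 572 and 364 FPKM in the controls and 24.2, 237, 244 and 237 FPKM in knockout mice. The lowest value in either group came from the gene-poor library, and the log2 fold change was -1.03 (SE 0.89, limma adjusted p = 0.587). It was -1.76 without control mouse 2 and -0.20 without knockout mouse 3.

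**Figure D2:**
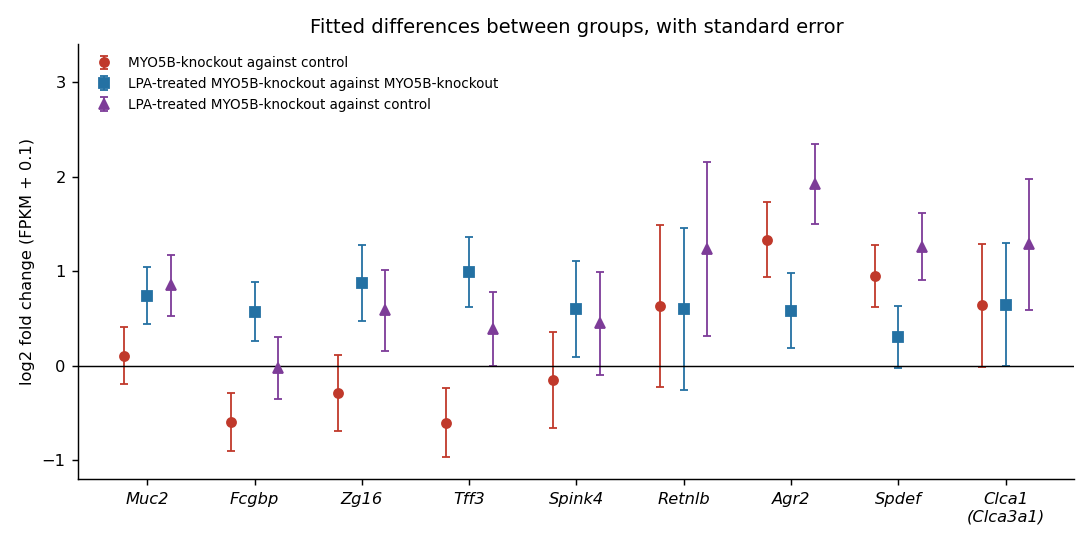
Log2 fold change of FPKM + 0.1 (points, with the SE of limma's fit as bars) for each member in the 3 comparisons, which share libraries: knockout with control (red circles), LPA-treated knockout with knockout (blue squares) and LPA-treated knockout with control (purple triangles). Agr2, Spdef, Muc2, Retnlb and the gene listed as Clca1 lie above 0 in all 3 comparisons. All 9 members lie above 0 when LPA-treated mice are compared with knockout mice.

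Relative to Muc2 in the same library, a measure that does not depend on how libraries are scaled, the composition of the goblet cell transcripts differed between the groups. These ratios are given as a description, with no test. The ratio of Fcgbp to Muc2 was 2, 2.1 and 2.02 in control mice and 1.16, 1.09, 1.43 and 1.36 in knockout mice 3, 5, 6 and 7. The ratio of Tff3 to Muc2 was 11.1, 10.2 and 11.8 in control mice and 7.93, 7.03, 5.8 and 6.34 in knockout mice. Both ratios were lower in every knockout mouse than in any control mouse, which held for 6.55% of all genes. The ratio of Agr2 to Muc2 was 0.447, 0.965 and 0.904 in control mice and 1.43, 1.65, 1.81 and 2 in knockout mice. The ratio of Spdef to Muc2 was 0.0232, 0.0376 and 0.0292 in control mice and 0.0493, 0.0513, 0.0567 and 0.0555 in knockout mice. Both were higher in every knockout mouse, which held for 8.89% of all genes. For Zg16, Spink4, Retnlb and the gene listed as Clca1 the ratios overlapped.

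**Figure D3:**
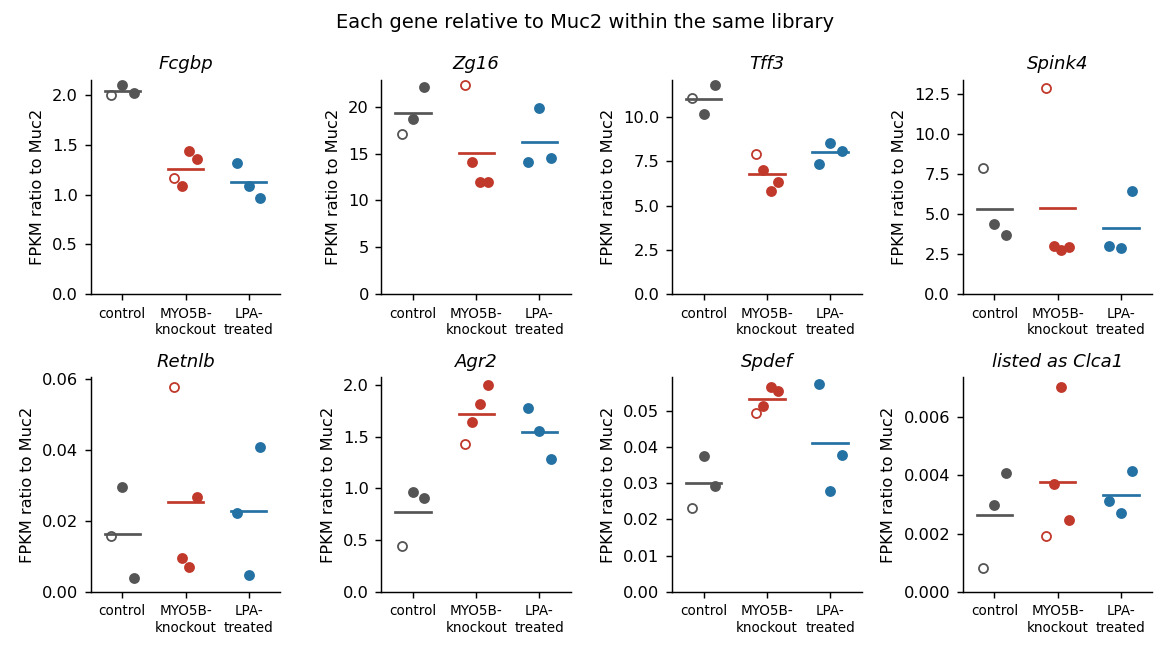
Ratio of each member's FPKM to that of Muc2 in the same library (vertical axes, linear from 0), with mice as points, group means as lines and the 2 gene-poor libraries as open points. The ratios of Fcgbp (1.09 to 1.43 in MYO5B-knockout mice against 2 to 2.1 in controls) and Tff3 are lower, and those of Agr2 and Spdef higher, in every MYO5B-knockout mouse than in any control mouse.

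With LPA, all 9 members had higher fitted levels than in MYO5B-knockout mice given vehicle, with log2 fold changes from 0.31 (Spdef) to 0.99 (Tff3) and a median of 0.60. Over all genes tested the median was 0.11, and 60.7% of genes were above 0. All 9 members stayed above 0 after median-ratio scaling and quantile normalization. The knockout libraries are the same as in the comparison with control mice. None of the members passed limma's adjusted p of 0.05 (all 9 adjusted p = 1), nor did any other gene. At an unadjusted p of 0.05, 459 genes (2.92%) passed, among them Muc2 and Tff3. edgeR called 0 genes and DESeq2 called 7, of which 0 were members. Tff3 reached 3059, 5303 and 4370 FPKM in mice 1, 4 and 5 under LPA, all above the highest knockout value of 2998 FPKM (log2 fold change 0.99, SE 0.37). Fcgbp reached 548, 673 and 521 FPKM, all above the highest knockout value of 497 FPKM (0.57, SE 0.31, and 0.33 without knockout mouse 3). LPA-treated mice lay above all knockout mice in this way for 3.56% of all genes tested.

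The other products overlapped between the vehicle and LPA groups. Muc2 was present at 415, 619 and 539 FPKM under LPA, and only mouse 1 lay within the knockout range (0.74, SE 0.30). Zg16 was present at 5864, 12324 and 7841 FPKM, and again only mouse 1 overlapped with knockout mice (0.87, SE 0.40). Spink4 was present at 1238, 1794 and 3476 FPKM, Retnlb at 9.23, 2.99 and 22.1 FPKM and the gene listed as Clca1 at 1.3, 1.67 and 2.23 FPKM. For these genes 1 mouse decided much of the mean: without LPA-treated mouse 5 the log2 fold change of Spink4 was 0.19 in place of 0.60, and that of Retnlb was -0.081 in place of 0.60. Agr2 was present at 741, 966 and 695 FPKM (0.58, SE 0.40) and Spdef at 23.9, 17.3 and 20.4 FPKM (0.31, SE 0.33). Without knockout mouse 3, whose library was gene-poor, these were 0.29 and 0.067. Without knockout mouse 3 and LPA-treated mouse 1, which went against the labelled sex, Spdef was at -0.048. With only LPA-treated mouse 1 left out, whose description also names vehicle, Muc2 was at 0.90, Zg16 at 1.12 and Tff3 at 1.21. All 9 members were then above 0, with a median of 0.82 in place of 0.60, and 0 were called.

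The 9 members together took 1.08% to 1.2% of the reads in control mice, 0.745% to 1.14% in knockout mice and 1.2% to 1.92% in LPA-treated mice. Every LPA-treated library thus lay above every knockout library, but narrowly, with 1.2% in LPA-treated mouse 1 against 1.14% in knockout mouse 5. Of all genes tested, 3.56% lay this way when taken singly. The lowest LPA-treated library was close to the highest control, and the lowest knockout value came from gene-poor mouse 3. Zg16 made 43.2% to 56.8% of the members' summed FPKM over all libraries. The share of Tff3 was 27.2% to 28.4% in control mice, 16.9% to 25.2% in knockout mice and 24.4% to 25.7% in LPA-treated mice. The 16.9% came from gene-poor knockout mouse 3, and the remaining knockout mice held 23.3% to 25.2%. The share of Agr2 was 1.13% to 2.59% in control mice, 3.04% to 7.78% in knockout mice and 3.97% to 6.23% in LPA-treated mice. Paneth cells are another granule-forming lineage of the crypt. Summed FPKM of their markers ran from 5091 to 9198 FPKM in knockout mice and from 1485 to 5870 FPKM in LPA-treated mice. These ranges overlapped (10 markers, all detected in every group, with 5029 to 14453 FPKM in control mice). All 10 Paneth cell markers were below 0 between LPA-treated and knockout mice (median log2 fold change -1.62), and 8 of them had an unadjusted p under 0.05, but limma called 0. Of 10 enteroendocrine cell markers, 9 were above 0 in the same comparison, with a median of 0.60 and summed levels of 238 to 661 FPKM in knockout mice and 333 to 830 FPKM in LPA-treated mice. Of 9 stromal markers tested, 8 were above 0, with a median of 1.21 and summed levels of 0.498 to 4.7 FPKM against 1.89 to 10.4 FPKM. The part of these markers in the members' values was not tested.

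**Figure D4:**
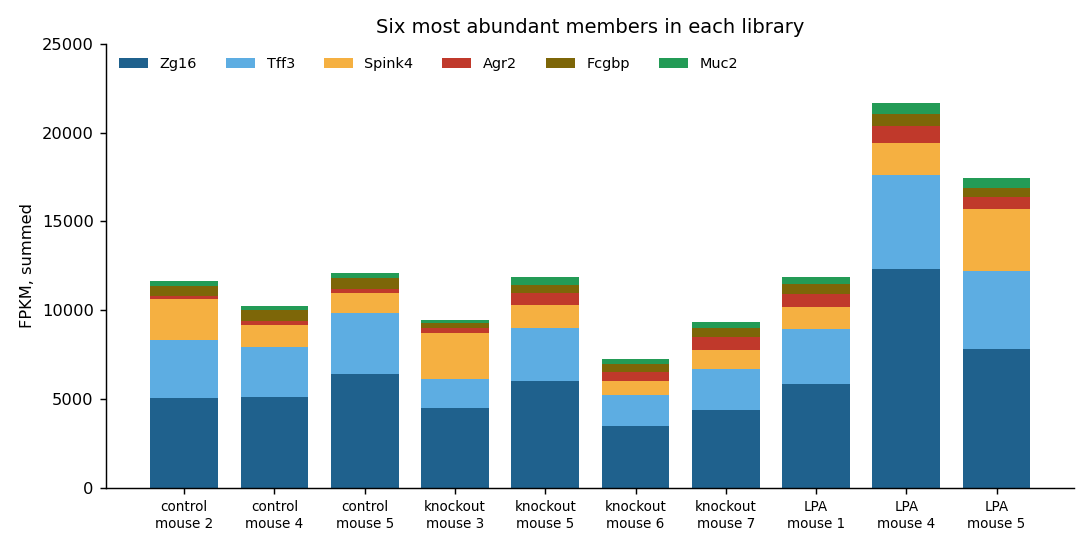
Summed FPKM (vertical axis, from 0) of the 6 most abundant members in each library, stacked by gene, for the 3 control, 4 MYO5B-knockout and 3 LPA-treated MYO5B-knockout mice. The tallest bars are those of LPA-treated mice 4 and 5, where all 9 members summed to 21701 and 17486 FPKM, and the Agr2 segment is thicker in induced than in control mice.

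LPA-treated MYO5B-knockout mice were also set against control mice, a comparison that shares libraries with both others. Agr2 was 3.78-fold higher and was the only member that passed (log2 fold change 1.92, SE 0.42, limma adjusted p = 0.0471), against 2.32% of all genes tested and 1.54% that were higher. This call lay close to the threshold: it was also made by edgeR (adjusted p = 0.0355, with 2.4% of all genes called) and DESeq2 (adjusted p = 1.17e-05, with 9.47% called), but held in 1 of 10 fits with a mouse left out, the one without knockout mouse 3, and was lost in a fit of these groups alone (limma adjusted p = 0.0795). Leaving out control mouse 2 gave 1.58 for Agr2 and leaving out control mouse 4 gave 2.09. Spdef was 2.39-fold higher, with every LPA-treated mouse above every control (1.26, SE 0.35, limma adjusted p = 0.0986). It passed without the 2 gene-poor libraries (1.11, limma adjusted p = 0.0254) and with DESeq2 (0.90, adjusted p = 0.0029). Muc2 (0.85, SE 0.33, limma adjusted p = 0.224) and the gene listed as Clca1 (1.28, SE 0.69, limma adjusted p = 0.389) also lay above all controls in all 3 LPA-treated mice, as did 20.5% of all genes tested. Fcgbp stood at the control level, with a log2 fold change of -0.02 (SE 0.33, limma adjusted p = 0.985). The log2 fold changes of Tff3, Spink4, Zg16 and Retnlb were 0.39, 0.45, 0.59 and 1.23 with overlapping groups.

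The ratio of Fcgbp to Muc2 was 1.32, 1.09 and 0.965 in LPA-treated mice 1, 4 and 5, and that of Tff3 to Muc2 was 7.37, 8.57 and 8.1. Both lay below all controls, as did the ratios of 17.6% of all genes, and both overlapped with knockout mice. The ratio of Agr2 to Muc2 was 1.78, 1.56 and 1.29, above all controls, which held for 4.09% of genes. That of Spdef to Muc2 was 0.0575, 0.0279 and 0.0378, which overlapped with the controls.

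Enzymes that build the sugar chains of mucins had mostly higher fitted levels in knockout than in control mice. Of 13 mucin O-glycosylation enzymes tested, 12 were above 0 between knockout and control mice, as were 63.4% of all genes, with a median log2 fold change of 0.79 against 0.29 for all genes, and 1 was called. This was Galnt3, a transferase that starts O-glycan chains, at 5.9, 8.43 and 6.48 FPKM in the controls and 20.2, 28, 25.3 and 22.6 FPKM in knockout mice (1.78, SE 0.25, limma adjusted p = 0.00935). The groups were far apart, and LPA-treated mice held 31.3, 33.5 and 26.9 FPKM. Fut2, the fucosyltransferase that adds terminal fucose to secreted glycans, was present at 0.19, 0.748 and 0.379 FPKM in the controls and at 0.542, 3.7, 9.02 and 17.7 FPKM in knockout mice (3.19, SE 0.96, limma adjusted p = 0.117). Only knockout mouse 3 overlapped with the controls. Without the 2 gene-poor libraries, 4 enzymes of this list were called in place of 1, against 4.95% of all genes, Fut2 among them (3.74, limma adjusted p = 0.0276). The call of Galnt3 held in 9 of 10 fits with a mouse left out, all but the one without control mouse 5 (limma adjusted p = 0.0669). In a fit of the knockout and control groups alone it was lost (limma adjusted p = 0.0534) and 0 enzymes were called.

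Of 22 other goblet cell markers tested, 2 rose and 1 fell in knockout mice, against 2.01% of all genes called. The median log2 fold change was 0.45 against 0.29 for all genes, and it was 0.028 without control mouse 2, -0.015 with edgeR and -0.045 with DESeq2. Qsox1, a sulfhydryl oxidase that forms disulfide bonds in secreted proteins, rose from 13.9, 15.7 and 14.8 FPKM in control mice to 35.5, 50.7, 37.7 and 48.5 FPKM in knockout mice (1.52, SE 0.25, limma adjusted p = 0.0174). Capn8, a calpain protease of mucous cells, rose from a mean of 0.859 to 4.29 FPKM (2.21, SE 0.40, limma adjusted p = 0.0267). Ccl6, a chemokine that myeloid cells also make, fell from 19.2, 70.3 and 69.6 FPKM to 4.12, 7.25, 10.2 and 6.1 FPKM (-2.77, SE 0.56, limma adjusted p = 0.0379). With a mouse left out, these calls held in 7 of 10 fits for Qsox1, 4 for Capn8 and 2 for Ccl6, and none held without control mouse 4, control mouse 5 or knockout mouse 5. In a fit of the knockout and control groups alone all 3 were lost (limma adjusted p = 0.058, 0.0895 and 0.0872 in the same order). Ccl6 was also lost with no filter on low values (limma adjusted p = 0.0543) and without the 2 libraries that went against the labelled sex (limma adjusted p = 0.0579). All 10 leukocyte markers had negative fold changes between the same groups, with summed levels of 332 to 460 FPKM in the controls and 18.2 to 139 FPKM in knockout mice and none of them at 0 in either group, and their part in the value of Ccl6 was not tested. All 10 proliferation markers were above 0 (summed 88.7 to 123 FPKM in the controls and 206 to 333 FPKM in knockout mice), and their part in the values of Agr2, Spdef and the glycosylation enzymes was not tested either.

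Of 8 transcription factors of the goblet lineage, 0 were called by limma between knockout and control mice, also 0 at an unadjusted p of 0.05, and 1 without the 2 gene-poor libraries. That gene was Foxa1, a forkhead factor, at 0.568, 2.81 and 2.13 FPKM in the controls and 1.15, 9.71, 7.61 and 6.06 FPKM in knockout mice (1.59, SE 0.73, limma adjusted p = 0.29, and 1.61 with adjusted p = 0.0231 without those libraries). Creb3l1, a transcription factor of the secretory pathway, had a log2 fold change of 0.67 (limma adjusted p = 0.596). Atoh1, which commits cells to the secretory lineages, was at 1.30, 5.72 and 6.13 FPKM in the controls and at 0.131, 8.06, 6.89 and 6.56 FPKM in knockout mice. The lowest value of each group came from the gene-poor library. The fitted log2 fold change was -0.27 (SE 1.19, limma adjusted p = 0.931), although the mean was higher in knockout mice (5.41 against 4.38 FPKM).

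Between LPA-treated and knockout mice, limma called 0 genes of these 3 lists. At an unadjusted p of 0.05, 0, 0 and 2 of the transcription factors, glycosylation enzymes and other markers passed, against 2.92% of all genes. The medians of the lists were 0.24, 0.23 and 0.33, against 0.11 for all genes tested. The 2 markers were Klk1, a kallikrein protease, with means of 80 against 46.3 FPKM (0.81, limma adjusted p = 1) and Pla2g10, a secreted phospholipase, with 4.69 against 2.58 FPKM (0.90, limma adjusted p = 1). Their groups did not overlap. In this direction that held for 3 of the 22 other markers tested and for 3.56% of all genes. Atoh1 (1.32) and Gfi1 (-0.78) were the transcription factors with the smallest p, and Atoh1 dropped to 0.081 without knockout mouse 3. LPA-treated mice were also compared with the same control mice, where 2.32% of all genes passed. Galnt3 (2.14, limma adjusted p = 0.00399), Qsox1 (1.71, limma adjusted p = 0.0112), Capn8 (2.53, limma adjusted p = 0.0165) and Ccl6 (-3.69, limma adjusted p = 0.0133) passed, and Fut2 was at 4.33 (limma adjusted p = 0.058). With a mouse left out, these 4 calls held in 10, 8, 6 and 6 of 10 fits in the same order. In a fit of these 2 groups alone Capn8 (limma adjusted p = 0.0681) and Ccl6 (limma adjusted p = 0.0684) were lost.

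**Figure D5:**
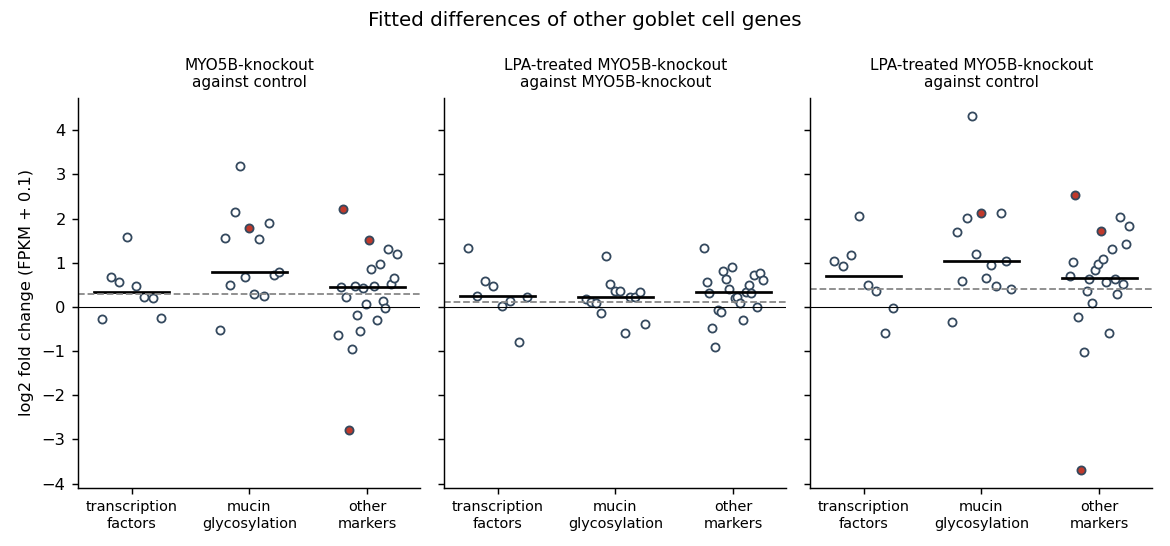
Log2 fold change of FPKM + 0.1 for each gene of 3 lists (goblet lineage transcription factors, mucin O-glycosylation enzymes, other goblet cell markers) in the 3 comparisons, with filled points for genes at an adjusted p below 0.05, black lines for list medians and a dashed line for the median of all genes tested. The glycosylation enzymes lie mostly above 0 in both comparisons with control mice, 12 of 13 in each, against 63.4% and 69.5% of all genes.

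The relatives of the members were mostly silent. Muc5ac, Tff1 and Retnla had no reads in any library, and the group means of Muc5b, Muc6, Tff2, Retn, Retnlg, Elf5, Spink5 and the Fcgbp relative 9530053A07Rik were at most 0.783 FPKM. Agr3, the neighbour gene of Agr2, had means of 1.41, 0.696 and 1.44 FPKM in control, knockout and LPA-treated mice, so it did not share the higher level of Agr2 in knockout mice. The ETS relatives of Spdef differed from each other, with Elf3 at 137, 131 and 147 FPKM and Ehf at 6.57, 15.2 and 12.4 FPKM in the same order (Ehf in knockout against control mice 1.39, limma adjusted p = 0.228). Spink1, listed as Spink3, a trypsin inhibitor and relative of Spink4, fell from 12733, 2351 and 3405 FPKM in control mice to 1121, 158, 280.3 and 454 FPKM in knockout mice (-3.59, SE 0.77, limma adjusted p = 0.0448). The groups did not overlap, and the highest value in each came from the gene-poor library, as for Spink4. Of 11 relatives tested, it was the one called. The call held in 1 of 10 fits with a mouse left out, the one without knockout mouse 3, and was lost with a pseudocount of 0.01 (limma adjusted p = 0.0528), with no filter on low values (0.0698), after median-ratio scaling (0.059), in a fit of these groups alone (0.113) and with edgeR (adjusted p = 0.0622).

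Some members had close companions in level over the 10 libraries, given as the mean absolute difference in log2 level after centring each gene on its own mean. For Agr2 these were Tspan8 (0.17), Mrps10 (0.20) and S100a11 (0.20). For Spink4 they were Ccdc23 (0.078), Ubxn1 (0.12) and Polr2i (0.14), and for the gene listed as Clca1 they were Ccnl1 (0.21), Hltf (0.22) and Fam76b (0.23). Retnlb had no close companion, its nearest being C230035I16Rik, 1190002F15Rik and D730003I15Rik at 0.58, 0.65 and 0.68. The other 5 members spanned less than 2 log2 units over the libraries and were not searched. The gene-poor libraries held the highest Spink4 values of the control and knockout groups, and their part in these likenesses was not tested.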

How the data were processed

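The authors counted reads on genes and deposited FPKM for every gene and library, on the GRCm38 (mm10) genome. The submitters' processing notes name STAR 2.5, TopHat, HTSeq 0.6.1 and DESeq2. Strand settings are not given in the sources used here. Deposited columns of the authors' own comparisons (fold changes, p-values) were not used. FPKM multiplied by the deposited gene length was divided by a step estimated for each library from its low values. This gave whole reads for 100% of values (tolerance 0.01 read), and 63 of 63 read counts in the deposited files were equal to them. The log2 of FPKM + 0.1 was fitted with limma 3.58.1 (R 4.3.3, trended variance, two-sided, Benjamini-Hochberg) for the 15729 genes whose mean reached 0.1 FPKM, all 9 members among them, in 1 model of the 3 groups. Groups came from sample titles. Mouse numbers mark separate mice, so samples were not paired. Alternatives were pseudocounts, filters, scalings, array weights, left-out mice, edgeR 4.0.16 and DESeq2 1.42.0. The script was tested on simulated data. Named genes were all members and, from 5 goblet-related lists, up to 5 genes past the threshold or otherwise the 2 with the smallest p. Levels of detected relatives and the 3 genes most like a variable member were added. The members and lists were chosen with earlier results of these data known. P-values cover the spread between these mice, and read numbers cover counting error only.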

Additional observations from a re-analysis of the deposited data

Results flagged for a closer look

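Among the 4 MYO5B-knockout mice, 2 genes had 1 mouse far from the other 3 by Dixon's test, and both times it was mouse 3, whose library was gene-poor. The gene named Clca1 in M21 was at 24.2 FPKM in that mouse and at 237 to 244 FPKM in the others. Il4 was at 2.42 FPKM in that mouse and at 0.147 to 0.324 FPKM in the others. Chance alone flags about 1 in 20 groups, and 29 genes were examined. The 9 members were among those examined, and none of them was flagged.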

How the results depend on the processing

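Agr2, Spdef, Fcgbp and Tff3 kept their direction between knockout and control mice under every alternative run, but their calls did not hold throughout. Array weights did not converge, and they called Agr2 (1.17), Spdef (1.04), Fcgbp (-0.42), Tff3 (-0.74) and Zg16 (-0.62) there. Between LPA-treated and control mice they called Agr2, Spdef (1.11) and Muc2 (0.96), and Fcgbp turned to 0.085. They gave 7414, 169 and 4629 genes for knockout against control, LPA against knockout and LPA against control, and turned Fut2 to -0.14 in the second and Il4 to -0.63 in the first. DESeq2 on recovered reads gave 1830, 7 and 1489 genes. It called Agr2 (1.07), Spdef (0.68) and Fcgbp (-0.92) in the first, and Agr2 and Spdef (0.90) in the third. It turned Muc2 to -0.22 in the first and Spink4 to -0.0030 in the third. Between knockout and control mice, edgeR and median-ratio scaling both turned Muc2 to -0.18, and quantile normalization turned Zg16 to 0.13 and Spink4 to 0.0043. The counts there were 598 with median-ratio scaling (223 higher and 375 lower, against 177 and 139 as deposited), 804 with quantile normalization (366 higher), 188 with no filter and 50 in a fit of the 2 groups. edgeR gave 443 genes (179 higher and 264 lower). Between LPA-treated and control mice the counts were 626 with quantile normalization (300 higher, against 243 of 365 as deposited) and 190 in a fit of the 2 groups. With quantile normalization Spdef (0.98) passed beside Agr2. Median-ratio scaling gave 490 (221 higher), edgeR 377 (180 higher).

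Without the 2 gene-poor libraries, the counts were 778 between knockout and control mice and 1346 between LPA-treated and control mice. Agr2 (1.29) and Spdef (1.04) passed in the first, where Il4 turned to -0.42. Agr2 and Spdef (1.11) passed in the second. Without the 2 libraries with Xist and no Y reads, Spdef (-0.048), Atoh1 (-0.10) and the M21 gene Clca1 (-0.29) turned sign between LPA-treated and knockout mice, Fcgbp turned to 0.017 against control mice and Agr2 missed the threshold there (1.97). Agr2 also missed it at 1.92 in a fit of the 2 groups, with no filter and with a pseudocount of 0.01.

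Leaving out 1 mouse at a time, the counts ran from 44 to 403, from 0 to 0 and from 73 to 702 in the 3 comparisons. Between knockout and control mice, Agr2 ran from 1.001 to 1.63 and Spdef from 0.81 to 1.19, each passing in 1 of 10 fits, the one without knockout mouse 3. Muc2 ran from -0.045 to 0.31, Spink4 from -0.48 to 0.20 and Retnlb from -0.14 to 1.22, and Retnlb ran from -0.081 to 1.34 between LPA-treated and knockout mice, where Gfi1 ran from -1.52 to 0.022. Against control mice, the LPA-treated mice gave 1.58 to 2.09 for Agr2, 1.11 to 1.40 for Spdef, -0.13 to 0.054 for Fcgbp and -0.84 to 0.44 for the M21 gene Clca1. The cause of these changes was not tested.

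The control and LPA-treated groups share the mouse numbers 4 and 5, and a fit with the replicate number as a block gave 0 genes past the threshold (3736 at an unadjusted p of 0.05), 1.63 for Agr2 (limma adjusted p = 0.162) and 0.024 for Fcgbp. The numbers mark different mice. No paired analysis was possible for the other comparisons because their groups share only the number 5.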

Other observations

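Type 2 cytokine genes, which act upstream of Retnlb in other settings, were sparse. Of 10 listed, 6 were tested and 0 were called by limma in any of the 3 comparisons, also 0 at an unadjusted p of 0.05. The receptor chain Il4ra had means of 15.2, 23.9 and 30.8 FPKM in control, MYO5B-knockout and LPA-treated mice, with limma adjusted p = 0.56 between knockout and control mice and 0.306 between LPA-treated and control mice. Il4 itself had means of 0.26, 0.793 and 1.47 FPKM in the same order, the second of which rested largely on knockout mouse 3. The third rested largely on LPA-treated mouse 5, at 2.98 FPKM against 0.675 and 0.764 FPKM in mice 1 and 4. Without mouse 5 the log2 fold change of Il4 between LPA-treated and knockout mice was 0.54 in place of 1.17. The mast cell protease Mcpt1 had means of 6.61 and 25.3 FPKM in knockout and LPA-treated mice (limma adjusted p = 1). The second mean rested on LPA-treated mouse 1, at 67.5 FPKM against 3.99 and 4.31 FPKM in mice 4 and 5. Without that mouse the log2 fold change was 0.24 in place of 1.57.

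The relatives of Clca1 on chromosome 3 differed in level. Under their M21 names, Clca4b (listed as AI747448) had means of 380.0, 354 and 225 FPKM in control, knockout and LPA-treated mice, and Clca4a (listed as Clca6) had 83.9, 98.9 and 48.6 FPKM. Clca3b (listed as Clca4) had 37.9, 16.6 and 13.2 FPKM, with a log2 fold change of -1.78 between LPA-treated and control mice (limma adjusted p = 0.191). Clca3a2 (listed as Clca2) and Clca2 (listed as Clca5) had group means of at most 1.71 FPKM. Reads that fit more than 1 of these similar genes could be shared or lost by the counting, so their levels are uncertain.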
